A study of Mus musculus with 8 samples.

Results

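The placental prolactin family hormones are a set of 10 mouse genes, Prl3b1, Prl3d1, Prl4a1, Prl5a1, Prl7a1, Prl7a2, Prl7d1, Prl8a2, Prl8a8 and Prl8a9, followed here through embryos that lack Runx1. They were chosen by gene symbol, and a probe set was counted for a member only where the platform annotation gave it to that 1 symbol. By this rule 8 of the 10 genes were measured, of 18193 genes on the array, and Prl3b1 and Prl3d1, the placental lactogens, were not analysed here. Total RNA of mouse embryo propers on a BALB/c background was hybridised to 1-colour Affymetrix mouse arrays, with 2 arrays in each of 4 groups: Runx1 knockout at E12, wild type at E12, Runx1 knockout at E8.5 and wild type at E8.5. Runx1 encodes a DNA-binding protein on which the definitive blood cells depend, and the study compared knockout with wild type at each stage. The knockout is of the whole animal, and the study calls the replicates biological, but the number of embryos behind an array is not given in the sources used here.

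Prolactin is a pituitary hormone that acts through a cytokine receptor coupled to JAK2 and STAT5. In rodents the gene has been duplicated many times, and most of the copies are expressed in trophoblast, the fetal lineage of the placenta, or in decidua, the maternal lining of the implantation site. They are secreted hormones: the placental lactogens bind the prolactin receptor, while many of the others act on vessels, blood cell precursors or uterine natural killer cells. The embryo itself is not a known main source of them, so their level in each array of a dissected embryo was described before any group difference.

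All of the family lies on mouse chromosome 13. In the order of the RefSeq gene table, Prl8a8 was next to Prl8a9, Prl4a1 next to Prl5a1, and Prl7a1, Prl7a2 and Prl7d1 followed each other. Promoters were available for 9 of the 10 members from RefSeq (GRCm38.p6), the exception being Prl8a2. The 120 bases just before the transcription start are printed for a pair of neighbours of which one was bright in a single array and the other dim in all arrays (Prl7a1 and Prl7a2), for a second such pair (Prl8a9 and Prl8a8), and for 2 further members that were bright in that array (Prl4a1 and Prl5a1). Capitals mark matches to TGANTCA (the AP-1 motif), GATAA (the GATA motif, written TTATC on the other strand), TGTGGT or TGCGGT (the RUNX motif) on either strand, and TATAAA or TATATA on the gene strand.
Prl7a1: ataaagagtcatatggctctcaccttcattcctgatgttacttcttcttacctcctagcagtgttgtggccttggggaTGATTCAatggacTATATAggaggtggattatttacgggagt
Prl7a2: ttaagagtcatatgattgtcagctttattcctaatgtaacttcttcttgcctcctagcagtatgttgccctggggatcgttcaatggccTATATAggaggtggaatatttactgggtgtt
Prl8a9: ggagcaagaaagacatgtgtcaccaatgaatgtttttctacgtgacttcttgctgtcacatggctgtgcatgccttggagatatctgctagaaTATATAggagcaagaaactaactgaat
Prl8a8: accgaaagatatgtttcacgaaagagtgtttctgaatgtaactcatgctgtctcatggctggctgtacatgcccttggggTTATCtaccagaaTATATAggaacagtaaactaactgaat
Prl4a1: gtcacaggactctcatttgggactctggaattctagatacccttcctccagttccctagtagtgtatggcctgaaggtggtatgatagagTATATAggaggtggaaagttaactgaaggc
Prl5a1: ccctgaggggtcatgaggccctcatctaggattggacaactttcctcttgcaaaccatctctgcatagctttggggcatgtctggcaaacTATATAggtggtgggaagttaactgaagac

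The windows lie at chr13:27642494-27642613 (Prl7a1, minus strand), chr13:27668037-27668156 (Prl7a2, minus), chr13:27564607-27564726 (Prl8a9, minus), chr13:27513218-27513337 (Prl8a8, minus), chr13:28016092-28016211 (Prl4a1, plus) and chr13:28142364-28142483 (Prl5a1, plus). TATATA, which was searched after the sequences had been seen, stood in all 9 member promoters within 250 bases of the start and in 5.25% of 32851 RefSeq promoters of that length. In every member its first base, or that of its last match, lay 27 to 32 bases before the start. TATAAA was in 0 of 9, against 7.59% of all promoters. AP-1 letters were in 3 of 9 (6.75% of all): Prl3d1, 79 bases before the start, Prl7a1, 160 and 42 bases before it, and Prl7a2, 161 bases before it. GATA letters were in 6 of 9 (22.6% of all), and RUNX letters in 0 of 9 (18.6% of all). Over 250 bases, Prl7a1 and Prl7a2 were identical at 195 of 246 aligned bases (79.3%), and Prl8a8 and Prl8a9 at 198 of 245 (80.8%). Both pairs thus shared most promoter letters, whereas their levels in the arrays differed as given below.

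The log2 of the deposited intensity was read per array, with 1 probe set standing for each gene. Array medians were 5.16 to 5.20 at E12 and 4.96 to 5.01 at E8.5, and replicate arrays correlated across probe sets at 0.992 (knockout) and 0.965 (wild type) at E12 and at 0.983 (knockout) and 0.927 (wild type) at E8.5. Across probe sets, E8.5 wild-type replicate 1 stood at least 1 log2 unit above every other E8.5 array in 2.52% of 45037 probe sets, E8.5 wild-type replicate 2 in 1.23%, E8.5 knockout replicate 1 in 0.102% and E8.5 knockout replicate 2 in 0.0822%. The targeted gene did not check the labels: of 6 Runx1 probe sets, the one with the largest E8.5 t read 6.09 and 6.33 in arrays labelled knockout and 5.26 and 5.09 in arrays labelled wild type at E8.5. Whether any Runx1 probe set lies in the deleted part is not given in the sources used here, and the groups are named by their labels.

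At E8.5, 5 of the 8 measured hormone genes were bright in a single array, wild-type replicate 1, by the criterion above, against 2.52% of all probe sets, and none was so in any other array. These were Prl7a1, Prl4a1, Prl5a1, Prl7d1 and Prl8a9. In the other 3 arrays of the stage, 2 knockout and 1 wild type, 4 of the 5 read within 0.70 log2 units of each other, and Prl4a1 alone spread more widely. The E8.5 differences of the members are therefore given with and without that array.

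Prl7a1, also known as prolactin-like protein E, acts on the megakaryocyte lineage in culture. It read 4.31 and 4.17 in the E8.5 knockout arrays, against 12.96 and 4.37 in the E8.5 wild-type arrays. The bright array exceeded the next highest of the stage by 8.59 log2 units, the third largest such gap among all probe sets. The knockout and wild-type values did not overlap, but wild-type replicate 2 was only just above the knockout arrays. The other 2 probe sets of the gene were brightest in the same array: one read 2.86 and 3.09 in knockout and 7.08 and 3.11 in wild type, and the other 3.10 and 3.36 in knockout and 7.27 and 3.27 in wild type. The E8.5 difference was -4.43 (SE 2.38), with an adjusted p of 1.000 in limma, and -0.13 without wild-type replicate 1.

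Prl4a1 (prolactin-like protein A), a trophoblast hormone that binds uterine natural killer cells in rodents, read 4.67 and 6.35 in the E8.5 knockout and 12.47 and 6.80 in the E8.5 wild type. The bright array was 5.67 log2 units above the next highest. Unlike Prl7a1, the gene was also above its array's median in knockout replicate 2 and wild-type replicate 2, and below it in knockout replicate 1. The groups did not overlap. The difference was -4.12 (SE 1.64), and it was the only one among the members with an unadjusted p under 0.05 (0.0426), with an adjusted p of 1.000. Without wild-type replicate 1 it was -1.29.

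Prl5a1 (prolactin-like protein L), a placental hormone, read 3.44 and 4.13 in the E8.5 knockout and 9.71 and 3.56 in the E8.5 wild type. One wild-type array lay 5.58 log2 units above the next highest while the other lay between the 2 knockout arrays, so the groups overlapped. The difference was -2.85 (SE 1.72) over all arrays and 0.23 without wild-type replicate 1.

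Prl7d1 encodes proliferin-related protein, a trophoblast hormone that inhibits vessel growth. It read 3.42 and 3.63 in the E8.5 knockout and 6.53 and 3.39 in the E8.5 wild type. Wild-type replicate 2 was the lowest array of the stage and wild-type replicate 1 the highest, by 2.90 log2 units. The difference was -1.43 (SE 0.89) over all arrays and 0.14 without wild-type replicate 1. Its promoter was identical to those of the proliferin genes Prl2c3 and Prl2c5 at 94.8% and 95.2% of aligned bases, and sharing of probe signal between such close copies was not tested.

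Prl8a9, of the prolactin-like protein C group, read 3.55 and 3.58 in the E8.5 knockout and 6.20 and 3.54 in the E8.5 wild type. The bright array was 2.62 log2 units above the next highest, and the remaining arrays were within 0.038 log2 units of each other. The difference was -1.31 (SE 0.75) over all arrays and 0.025 without wild-type replicate 1.

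Prl8a2 and the remaining members did not share this pattern. Prl8a2 (decidual prolactin-related protein), made by decidual cells of the mother, read 8.49 and 7.81 in the E8.5 knockout and 7.69 and 6.90 in the E8.5 wild type. It was thus bright in all 4 arrays of the stage, between the 74.5th and the 87.1st percentile of probe sets, and E8.5 wild-type replicate 1 was not the highest. Its E8.5 difference was 0.86 (SE 0.37, unadjusted p = 0.0539 and adjusted p = 1.000 in limma), and it ranged from 0.46 to 1.25 when an array was left out.

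Prl7a2 (prolactin-like protein F), the neighbour of Prl7a1, read 3.05 and 2.82 in the E8.5 knockout and 2.97 and 3.12 in the E8.5 wild type. Prl8a8, the neighbour of Prl8a9, read 3.37 and 3.23 in the E8.5 knockout and 3.20 and 3.08 in the E8.5 wild type. Both were dim in every array, including the one in which their neighbours were bright, where Prl7a2 stood at the 1.14th and Prl8a8 at the 3.27th percentile. No detection calls were used, so a dim value has no floor against which to read it, these were not called absent, and gaps above dim arrays are given on the log2 scale and not as folds. Their E8.5 differences were -0.11 (SE 0.17) for Prl7a2 and 0.16 (SE 0.20) for Prl8a8, and -0.18 and 0.22 without wild-type replicate 1.

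**Figure D1:**
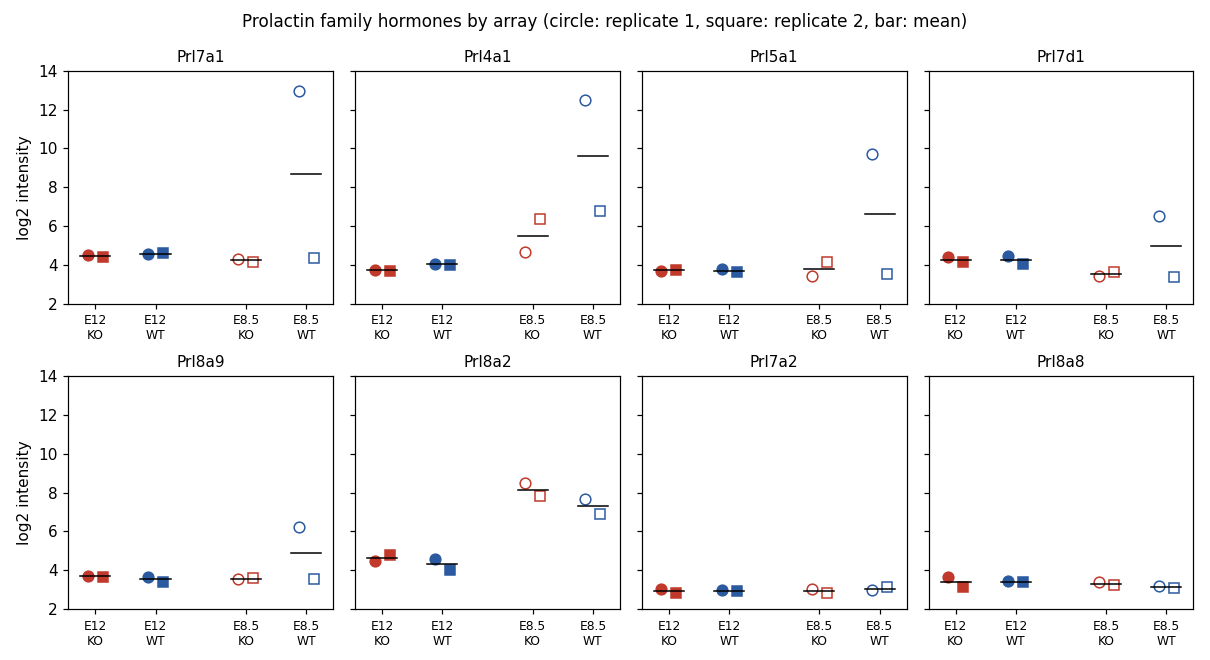
Log2 intensity of the 8 measured hormone genes (y axis) in the 8 arrays, by stage and genotype (x axis), with circles for replicate 1, squares for replicate 2, knockout (KO) in red, wild type (WT) in blue and a bar at each group mean. Prl7a1, Prl4a1, Prl5a1, Prl7d1 and Prl8a9 are each highest in E8.5 WT replicate 1 (6.20 to 12.96), while Prl8a2 is high in all 4 E8.5 arrays (6.90 to 8.49). Prl4a1 also has intermediate points in E8.5 KO replicate 2 and E8.5 WT replicate 2.

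Over the 8 members, 6 were lower and 2 higher in the E8.5 knockout than in the wild type, with a median difference of -1.37, against -0.018 over all probe sets, 53.1% of which were lower. No member was called at an adjusted p below 0.05 (0% of all probe sets were called, and 2132 had an unadjusted p under 0.05), and none passed the uncorrected threshold that the study used, a moderated t beyond 3 in either direction, which 2.06% of probe sets passed. Knockout and wild-type arrays did not overlap for 4 members (29.2% of all probe sets), of which Prl7a1 and Prl4a1 were lower and Prl8a2 and Prl8a8 higher in the knockout. The median over the members was 0.082 without wild-type replicate 1, the opposite sign. It was -2.82 without wild-type replicate 2, and in that fit, where 1 wild-type array was left at E8.5 and assumed to vary like the other groups, 5 members were called, as were 4.31% of all probe sets. For Prl7a1, Prl5a1, Prl7d1 and Prl8a9 the difference without wild-type replicate 1 was -0.13 to 0.23, whereas for Prl4a1 it kept its sign, at -1.29.

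**Figure D2:**
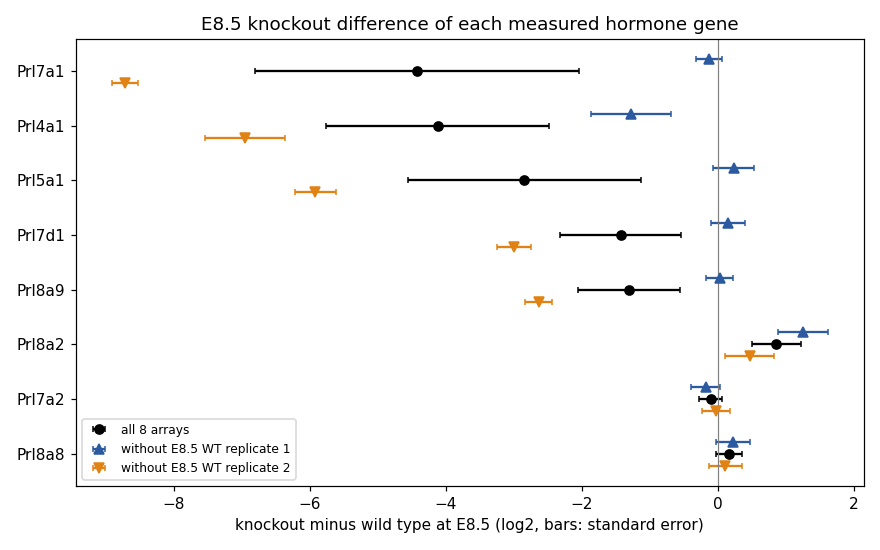
Knockout minus wild type at E8.5 (x axis, log2 units, bars: standard error) for each measured hormone gene (y axis), over all 8 arrays (circles), without E8.5 wild-type replicate 1 (upward triangles) and without E8.5 wild-type replicate 2 (downward triangles). For Prl7a1 the value is -4.43 over all arrays, -0.13 without replicate 1 and -8.72 without replicate 2.

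Other genes of the family gave similar values. Of 10 further prolactin family genes measured, 4 were at least 1 log2 unit higher in E8.5 wild-type replicate 1 than in every other array of the stage. Prl6a1 read 3.70 and 3.67 in the E8.5 knockout and 9.65 and 4.15 in the E8.5 wild type. Prl2a1 read 5.08 and 4.86 in the E8.5 knockout and 9.93 and 5.01 in the E8.5 wild type. Both had the shape seen for Prl5a1, with a single high array. A probe set that the annotation gives to several genes of the proliferin group read 5.90 and 5.90 in the E8.5 knockout and 13.34 and 6.42 in the E8.5 wild type, and no single gene can be named for it.

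The other 6 did not meet the criterion. One of them, Prl3c1, which is expressed in decidua, read 4.25 and 4.33 in the E8.5 knockout and 3.51 and 3.48 in the E8.5 wild type, so that both knockout arrays were higher and the groups did not overlap. The difference was 0.80 (SE 0.19), past the study's threshold with a t of 4.22, but with an adjusted p of 0.984 in limma. It was 0.82 without wild-type replicate 1 and 0.39 with a pseudocount of 16. The gene was dim, with both wild-type values under the 10th percentile of their arrays (3.58 and 3.61).

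The receptor side of the pathway was read from 9 measured genes, among them Ghr, Jak2, Stat5a and Stat5b. Of these, 7 were lower and 2 higher in the E8.5 knockout, with a median of -0.20 (-0.24 without wild-type replicate 1), and none was called or passed the study's threshold. Socs3, an inhibitor induced by cytokine signalling, read 5.40 and 5.34 in the E8.5 knockout and 8.12 and 5.42 in the E8.5 wild type, with the same bright array. Socs2, another inhibitor of the group, read 5.43 and 6.59 in the E8.5 knockout and 4.54 and 5.48 in the E8.5 wild type, with that array the lowest.

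Markers of the cell types that could carry these hormones were then set beside them, each as the mean deviation of a list from its own E8.5 mean. The 8 hormone genes deviated by -0.92 and -0.74 in the E8.5 knockout arrays, and by 2.51 and -0.86 in the wild-type arrays. The 12 trophoblast transcription factors deviated by -0.09 and -0.75 in the knockout and by 1.60 and -0.76 in the wild type, and 9 of the 12 were at least 1 log2 unit higher in wild-type replicate 1 than in every other array. Among them, Hand1, needed for trophoblast giant cells, read 7.41 and 7.53 in the knockout and 9.95 and 7.66 in the wild type, and Gata3, a trophoblast regulator, read 5.02 and 5.07 in the knockout and 8.32 and 5.29 in the wild type. The 9 genes and the 5 hormone genes were thus highest in the same array.

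Of 22 other trophoblast products, 7 met the same criterion in wild-type replicate 1. Tpbpa, a spongiotrophoblast marker, read 4.24 and 4.21 in the E8.5 knockout and 9.52 and 4.15 in the E8.5 wild type. Cts7, a placental cathepsin, read 3.31 and 3.05 in the knockout and 8.64 and 3.73 in the wild type. Ctsq, Ctsm and Tpbpb of the same list, named after their values were seen, were dim, at 3.18 to 4.66 in the 4 E8.5 arrays. Of the 22 genes, 13 were highest in wild-type replicate 1, and the list was not sorted by the age of the placenta. The 10 genes listed for parietal endoderm and the membrane lining the giant cell layer were all lower in the E8.5 knockout, with a median of -1.07. Of these, 3 (Lamb1, Sparc and Col4a1) passed the study's threshold while none was called. Without wild-type replicate 1 all 10 were still lower, with a median of -0.62. Lamb1, a laminin chain of that membrane, read 10.02 and 10.43 in the knockout and 11.34 and 11.45 in the wild type, so that both wild-type arrays were high. Of the 10 genes, 4 met the single-array criterion, among them Thbd (thrombomodulin), at 3.98 and 4.65 in the knockout and 9.32 and 4.38 in the wild type. The lower values of this list in the knockout were thus also seen against wild-type replicate 2. That comparison holds a single wild-type array, and the genes of a list are not replicates of it. Whether these genes read only that layer in the embryo samples was not tested.

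Of 17 decidual genes, 2 met the single-array criterion, against 2.52% of all probe sets, and 7 were highest in wild-type replicate 1. The list deviated by -0.14 to 0.13 over the 4 arrays, with -0.14 in that array. Hand2 and Hoxa10, which the embryo also expresses, were lowest there and lowered this mean, so it does not show that decidual genes were flat. None of 10 uterine natural killer cell genes and none of 13 visceral endoderm genes met the criterion. The visceral endoderm list was lowest in wild-type replicate 1, at -0.64. All 13 visceral endoderm genes were higher in the E8.5 knockout, with a median of 0.26. Of these, 1 (Slc2a2) passed the study's threshold and none was called. Without wild-type replicate 1 the list turned to 8 lower and 5 higher, with a median of -0.27. Several genes of the visceral endoderm, a yolk sac layer outside the embryo proper that the study describes, were bright in all E8.5 arrays. Cubn, an uptake receptor, read 13.29 and 13.35 in the knockout and 13.07 and 12.99 in the wild type. The part of trophoblast and other extraembryonic RNA in the E8.5 differences of the hormone genes was not tested. In such bulk samples fewer cells of a type and less RNA per cell cannot be told apart.

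**Figure D3:**
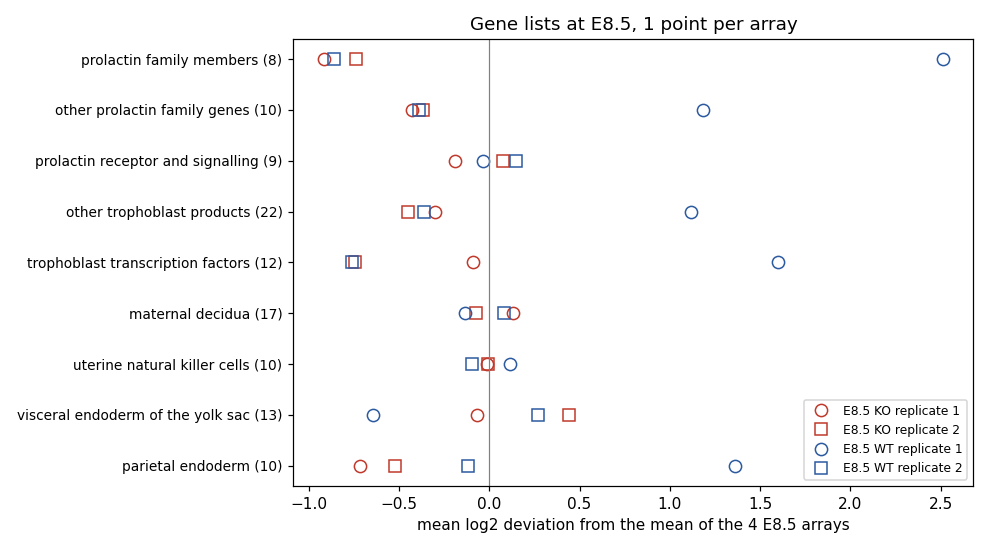
Mean log2 deviation from the E8.5 mean (x axis) for the hormone genes and 8 other gene lists (y axis, measured genes in brackets), with 1 point per array, knockout (KO) red and wild type (WT) blue. The hormone genes lie at 2.51 in E8.5 WT replicate 1 and at -0.92 to -0.74 in the other 3 arrays, and the trophoblast and parietal endoderm lists also have that array highest.

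The same array differed in sex-linked genes. Xist, transcribed from the inactive X chromosome, read 5.93 and 6.04 in the E8.5 knockout and 11.51 and 6.25 in the E8.5 wild type. The Y-linked gene Eif2s3y read 9.05 and 8.96 in the E8.5 knockout and 2.60 and 9.05 in the E8.5 wild type. At E12, knockout replicate 2 had the same combination, with Xist at 10.33 and Eif2s3y at 2.68, and its 8 hormone genes deviated by -0.049 from their E12 mean, but they were not bright in any E12 array. At E8.5 no other array had that combination, so at this stage it cannot be told apart from the other features of wild-type replicate 1.

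The genes whose profile was most like that of the hormones were sought among genes outside the family. Over the 8 arrays the 10 highest Pearson correlations with the mean of the 8 members were 0.991 to 0.998, for Adm, Cyp11a1, Lgals3, Pparg, Akt1, Sin3b, Gata3, Mmp9, 4930486L24Rik and Serpinb6b. Adm (adrenomedullin), a vasoactive peptide, read 7.05 and 7.35 in the E8.5 knockout and 12.59 and 7.07 in the E8.5 wild type. Cyp11a1, the enzyme that starts steroid hormone synthesis, read 4.60 and 4.20 in the E8.5 knockout and 9.69 and 4.34 in the E8.5 wild type. These correlations describe 8 arrays that share a single bright array, and over the 7 arrays without it the 10 genes most like the mean were others, among them Klf14, Car7, Msx2 and Mixl1 (0.991 to 0.996). The likeness in the first set was thus one of a single array. In the second set Klf14, Car7, Msx2 and Mixl1 were lower in all 4 E12 arrays than in the E8.5 arrays.

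**Figure D4:**
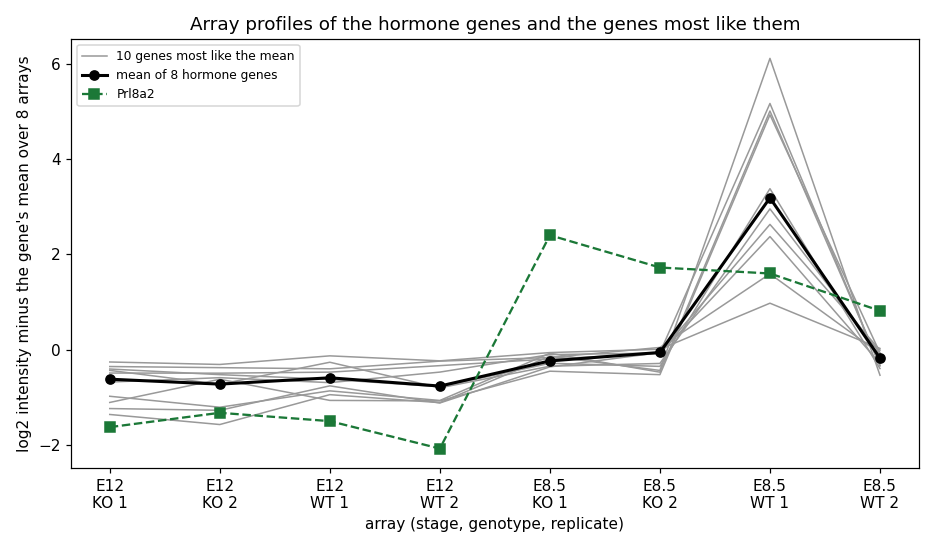
Log2 intensity minus each gene's own mean over the 8 arrays (y axis) in each array (x axis: stage, genotype and replicate) for the mean of the 8 hormone genes (black), the 10 genes most like it (grey) and Prl8a2 (green, dashed). The black and grey lines have 1 peak, at E8.5 wild-type (WT) replicate 1, while Prl8a2 is above 0 in all 4 E8.5 arrays and below 0 in all 4 E12 arrays.

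At E12 the question of a knockout difference was put to the same 8 genes. Of these, 4 were lower and 4 higher in the knockout, with a median difference of -0.0031 (0.011 over all probe sets). None was called (0.0133% of all probe sets were) and none passed the study's threshold (0.655% did). The arrays did not overlap for 3 members (28.4% of all probe sets): Prl4a1 and Prl7a1, lower in the knockout, and Prl8a9, higher. No E12 array stood apart, and the members deviated by -0.090 to 0.084 from their E12 mean.

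Prl4a1 read 3.76 and 3.70 in the E12 knockout and 4.03 and 4.02 in the E12 wild type, a difference of -0.29. Prl7a1 read 4.53 and 4.43 in the E12 knockout and 4.54 and 4.63 in the E12 wild type, a difference of -0.11. Both E12 differences were smaller than 2 of their standard errors (0.16 each) in a fit of the 4 E12 arrays alone. In the fit over all 8 arrays the E8.5 spread entered their errors, which were 1.64 and 2.38.

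Prl8a2 read 4.46 and 4.76 in the E12 knockout and 4.58 and 4.01 in the E12 wild type, a difference of 0.31 (SE 0.37), with overlapping groups. The other 5 genes had E12 values of 2.83 to 4.45 and differences of -0.023 to 0.15. Of these, Prl7d1 was the brightest, at 4.40 and 4.14 in the E12 knockout and 4.45 and 4.07 in the E12 wild type.

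The stage difference of the knockout effect, E12 minus E8.5, was 4.32 (SE 3.36) for Prl7a1 and 3.83 (SE 2.32) for Prl4a1, and its median over the members was 1.45. No member was called (0.00444% of all probe sets were), and without E8.5 wild-type replicate 1 the median was -0.051. The sign of this median thus rested on the single bright array, which need not hold for each member. For Prl4a1 the knockout difference without that array was still -1.29 at E8.5, against -0.29 at E12.

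Between stages, Prl8a2 was the only member called in both genotypes in the fit over all 8 arrays. In the knockout it read 4.46 and 4.76 at E12, against 8.49 and 7.81 at E8.5, and it fell by 3.54 on the log2 scale (SE 0.37, adjusted p = 0.00229 in limma). In the wild type it read 4.58 and 4.01 at E12, against 7.69 and 6.90 at E8.5, and fell by 3.0 (SE 0.37, adjusted p = 0.00329 in limma). All 4 E12 arrays were lower than all 4 E8.5 arrays. Stage differences were common on these arrays, with 25.6% of probe sets called in the knockout and 27.8% in the wild type, and 30.1% and 31.7% past the study's threshold. The Prl8a2 call stood in 16 of 16 alternatives in each genotype, with adjusted p-values of up to 0.0344 and 0.0163.

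Prl4a1 was the other member called between stages. In the wild type it fell by 5.61 (SE 1.64, adjusted p = 0.0462 in limma), with 4.03 and 4.02 at E12, against 12.47 and 6.80 at E8.5. In the knockout it was 3.76 and 3.70 at E12, against 4.67 and 6.35 at E8.5. The difference there was -1.78 (SE 1.64, adjusted p = 0.474 in limma). That SE includes the spread of the E8.5 wild-type arrays, which the knockout comparison does not use. The knockout difference was called in 2 of 16 alternatives, those leaving out an E8.5 wild-type array. The E12 arrays were lower than the E8.5 arrays in both genotypes. The wild-type call stood in 8 of 16 alternatives. The size of the wild-type difference ranged from -8.45 to -2.78, the latter without E8.5 wild-type replicate 1.

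In all, 1 of 8 members was called between stages in the knockout, against 25.6% of all probe sets. In the wild type 2 of 8 were called, against 27.8%, and 7 of 8 were lower at E12, against 50.5% of all probe sets. Neither count of calls was above the share over all probe sets. The median difference was 0.048 in the knockout and -2.13 in the wild type. Without E8.5 wild-type replicate 1 the wild-type median was 0.070. The wild-type stage comparison uses the same E8.5 arrays as the knockout comparison at that stage, so the 2 results are not independent. Prl7d1 had the largest positive stage difference in the knockout, at 4.40 and 4.14 at E12, against 3.42 and 3.63 at E8.5. The difference was 0.74 (SE 0.89, adjusted p = 0.588 in limma). As for Prl4a1, that SE includes the spread of the E8.5 wild-type arrays, which the knockout comparison does not use. Both E12 knockout arrays were higher than both E8.5 knockout arrays. The wild-type stage difference of Prl7d1 was -0.70 over all arrays. It was 0.87 without E8.5 wild-type replicate 1, the opposite sign and that of the knockout. Prl3c1, another gene of the family expressed in decidua, fell by 1.00 in the knockout (adjusted p = 0.0124 in limma), a call that stood in 12 of 15 alternatives. It read 3.08 and 3.50 at E12, against 4.25 and 4.33 at E8.5. Its E12 values in both genotypes were under the 10th percentile of their arrays (3.65 to 3.71). With a pseudocount of 16 its knockout stage difference was -0.46. In the wild type its difference was -0.32 (3.27 and 3.07 at E12, against 3.51 and 3.48 at E8.5, adjusted p = 0.261 in limma), called in 0 of 15 alternatives. Prl3c1 was thus called in 1 genotype, and the difference between the genotypes was not (adjusted p = 1.000 in limma). The brightest probe sets were dimmer at E12, where the 99th percentile of an array was 10.5 to 11.1, against 12.2 to 12.3 at E8.5. Prl8a2 was called in both genotypes after quantile normalization too.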

How the data were processed

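Per the labels and the study's methods, total RNA was amplified in 2 rounds and hybridised to 1-colour arrays. The authors corrected, normalized and summarized probes by Robust Multi-array Analysis. The authors deposited linear intensities, not logs. Software versions, detection calls and joint normalization of the 8 arrays: not given in the sources used here. Of 45101 probe sets, 64 controls were left out and 45037 were tested without a filter on dim values. The platform annotation, with symbols updated through RefSeq, gave 34945 probe sets 1 symbol, 932 several and 9160 none. The probe set with the highest mean stood for a gene. The log2 intensity, with no pseudocount, was fitted in limma 3.58.1 (R 4.3.3) with lmFit and eBayes, 1 mean per group and all 8 arrays. Calls needed an adjusted p (Benjamini-Hochberg, all probe sets) below 0.05. The fit was tested on simulated data with independent normal noise of the same spread in every group. No outlying array was simulated, so the test does not cover that setting. P-values rest on 1 spread per probe set, pooled over the 4 groups of 2 arrays and moderated over all probe sets. A single outlying array thus widens the errors of every comparison, and the small number of arrays limits the precision.

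The members and gene lists were chosen with earlier results of these data known, and lists were described by counts and medians without a set test. Named genes were all members, up to 4 genes with the highest absolute E8.5 t per list, the 10 genes most like the mean of the members, Xist and the Y-linked genes. Ghr, Jak2, Stat5a, Stat5b, Thbd, Ctsq, Ctsm, Tpbpb and the genes named only in the closing section stand outside this rule and were chosen after their values were seen. Promoter motifs were searched in the 250 bases before each start. Alternatives were quantile normalization, median centring, a pseudocount of 16, a filter on dim probe sets, array weights, an intensity trend, the mean over probe sets, a replicate block, single stages and leaving out each array. The other gene lists were recomputed without E8.5 wild-type replicate 1, an alternative chosen after seeing the data.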

Additional observations from a re-analysis of the deposited data

How the results depend on the processing

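The E8.5 knockout result of the hormone genes rested on wild-type replicate 1. When arrays were left out in turn, the E8.5 median ranged from -2.82 to 0.082, the E12 median from -0.12 to 0.12, the stage medians from -0.083 to 0.12 (knockout) and from -3.03 to 0.070 (wild type), and the stage difference of the knockout effect from -0.051 to 2.90. Counts of members called, and of members past an absolute t of 3, ranged from 0 to 5 for the E8.5 difference and the stage difference of the effect, from 1 to 3 for stage in knockout and from 1 to 6 for stage in wild type, and were 0 at E12. In the same fits, calls over all probe sets ranged from 0 to 4.31% (E8.5), 0 to 1.59% (stage difference of the effect), 5.16 to 35.7% (stage in knockout), 13.6 to 31.5% (stage in wild type) and 0 to 0.0266% (E12). Single genes that changed sign ranged, at E8.5, from -5.92 to 0.23 (Prl5a1), from -3.0 to 0.14 (Prl7d1), from -2.63 to 0.025 (Prl8a9) and from -0.22 to 0.0064 (Prl7a2), and at E12 from -0.071 to 0.079 (Prl5a1), from -0.12 to 0.10 (Prl7a2), from -0.18 to 0.20 (Prl7d1) and from -0.26 to 0.21 (Prl8a8). The filter on dim probe sets kept 3 members (Prl7a1, Prl4a1 and Prl8a2), with medians of -4.12 at E8.5, -0.11 at E12, -1.78 for stage in knockout, -4.08 for stage in wild type and 3.83 for the stage difference of the effect, since fewer genes were left. Median centring turned the stage median in knockout to -0.16, and the E12 differences of Prl5a1 to -0.015 and of Prl7d1 to -0.0075, and quantile normalization turned these genes to -0.017 and -0.0095. The mean over probe sets turned the E12 median to 0.0079 and Prl7a1 at E12 to 0.033. For stage in wild type, a pseudocount of 16 left 1 member called and 1 past an absolute t of 3. Array weights put 1 member past an absolute t of 3 at E8.5. The causes of these shifts were not tested. With the replicate number as a block, 1 member was called for stage in wild type, and no other count of calls changed. Deviations of same-numbered arrays correlated at 0.37 between the E8.5 groups and at 0.17 between the E12 groups. Across stages they correlated at -0.12 to 0.076. The block took 1 shift for both stages, and whether the numbers pair samples within a stage was not tested. At low intensity no level can be told from background here.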

Other observations

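Some trophoblast factors were also higher in E8.5 knockout replicate 1 than in knockout replicate 2. In E8.5 knockout replicate 1, Ascl2, a regulator of spongiotrophoblast, read 7.35, against 5.01 in knockout replicate 2 and 10.75 and 4.98 in the wild type. Elf5, a trophoblast stem cell factor, read 6.51 and 3.74 in the knockout and 9.10 and 4.0 in the wild type, and Tfap2c read 10.78 and 8.35 in the knockout and 12.38 and 8.57 in the wild type. In the same knockout array Prl7a1, Prl4a1 and Prl5a1 were at 4.31, 4.67 and 3.44, and the last 2 were the lowest of the stage, whereas Prl8a2 (8.49) and Prl8a8 (3.37) were the highest of the stage there.

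A few genes of the lists were lowest in E8.5 wild-type replicate 1. Hand2 read 8.31 and 8.20 in the E8.5 knockout and 5.47 and 9.10 in the E8.5 wild type, and Hoxa10 read 5.95 and 5.43 in the knockout and 3.19 and 5.69 in the wild type. Both had been listed as decidual genes, and the embryo also expresses them. Cdx2, listed with the trophoblast factors and also expressed in the posterior embryo, read 8.63 and 8.79 in the knockout and 7.59 and 8.57 in the wild type.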
